A study of Mus musculus with 8 samples.

Results

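The 7 genes described here, Oas1a, Oas1b, Oas1g, Oas2, Oas3, Oasl1 and Oasl2, belong to the oligoadenylate synthetase (OAS) family and were measured in cultured fibroblasts of the mouse embryo (MEFs). They were taken by symbol from the 49492 gene rows of 1 RNA-seq table, and they were selected on their levels in these same 8 libraries, with the differences between the groups already known. Their values are therefore given as a description with no p-value, and calls of the members are counted only beside the share of all genes called. The table held 8 polyA libraries in 4 groups of 2: Pontin WT MEFs in Normal medium, Pontin WT MEFs under Glucose starvation, Pontin RA MEFs in Normal medium and Pontin RA MEFs under Glucose starvation. Pontin is the product of Ruvbl1, an ATPase found in several chromatin remodeling complexes, and in the RA form 2 arginines that can be methylated are replaced by alanine. In all 4 groups the cells came from MEFs with floxed Pontin alleles (f/f) that were immortalized by serial passage. A Flag-tagged Pontin, WT or RA, was first added by lentivirus and drug selection, and the cells then lost their own Pontin through virus-delivered Cre, which spared the added copy. Starved cells were kept in medium without glucose and with dialyzed serum, and the labels do not give the duration. Each Pontin form is 1 stable line, so the form of Pontin and any other difference between the lines cannot be told apart.

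OAS proteins are sensors of double-stranded RNA, a sign of viral infection. Once bound to it they join ATP into short chains with an unusual linkage, the 2-5A molecules, which set off the decay of viral and cellular RNA. The genes are kept low in resting cells and are classical interferon-stimulated genes: type I interferon acts through its receptor and the JAK kinases on transcription factors such as STAT2 and IRF9, which act at the interferon-stimulated response element (ISRE) in promoters.

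Promoter sequences are shown first because the members had nearly the same order of groups. The 120 bases before the transcription start are printed 5′ to 3′ on the strand of the gene, from the RefSeq promoter table on build GRCm38.p6, with matches to a simple form of the ISRE, GAAA and a second GAAA with 2 bases of any kind between them, in capitals. Oas1a lies on the minus strand, with the window at chr5:120907526-120907645. The Oas1g window is at chr5:120887614-120887733, also on the minus strand, and that of Oas3 is at chr5:120777660-120777779, minus strand. Oas1b and Oas2 had no entry of their own in the table. Oas1b starts 120 bases from Oas1c and runs the other way, with its start taken from the GENCODE M21 annotation. The window of Oas1c at chr5:120812515-120812634, read on the plus strand, therefore faces Oas1b and is shown for it.
Oas1a: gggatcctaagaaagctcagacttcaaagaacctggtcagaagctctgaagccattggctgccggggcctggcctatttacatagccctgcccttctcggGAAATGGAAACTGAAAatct
Oas1g: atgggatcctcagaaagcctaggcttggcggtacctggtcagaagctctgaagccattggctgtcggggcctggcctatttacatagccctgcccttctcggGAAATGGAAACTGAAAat
Oas1b, facing: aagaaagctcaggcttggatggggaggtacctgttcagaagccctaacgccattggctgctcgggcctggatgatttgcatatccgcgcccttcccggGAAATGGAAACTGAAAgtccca
Oas3: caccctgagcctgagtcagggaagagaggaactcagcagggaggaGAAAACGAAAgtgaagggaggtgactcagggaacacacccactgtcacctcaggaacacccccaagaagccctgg
In Oas1a the pair of overlapping matches began 20 and 14 bases before the start, and in Oas1g 18 and 12 bases before it. Together these matches form the 16 bases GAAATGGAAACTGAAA, and the same run begins 22 bases before the start of Oas1b. That run, looked up after it had been seen here, was found on either strand in 7 of 32851 promoters of the table (0.0213%), which belonged to the 5 genes Oas1a, Oas1g, Oas1c, Apol9a and Apol9b. In Oas3 the single match, GAAAACGAAA, began 75 bases before the start. Searched on both strands over the full 300 bases (250 before the start and 50 after it), this ISRE form was held by 3 of the 5 members with an entry and by 3.44% of all promoters. Oasl1 and Oasl2 held no match in this window. TTCNNNGAA, the interferon gamma activated site (GAS), was held by Oas1a alone among the 5, and by 8.30% of all promoters.

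Values are CPM, read counts relative to a library size that the authors scaled, and each gene's value is given for replicate 1 and then replicate 2. Between 43205841 and 56363034 reads were recovered per library, and 3 reads, taken as the least that can be told from 0, were worth 0.0548 to 0.069 CPM. Low recovered counts were mostly even, which happens if both mates of a pair are counted. Numbers of reads given here can then stand for fewer independent fragments. Ruvbl1 lay between 27.6 and 28.4 in WT and between 32.0 and 45.0 in RA over both media, which includes any reads from the added copies and does not check which form they encode. Of 10 fibroblast marker genes, 9 had a value of at least 1 in every group, with a summed level of 10007 to 10087 in WT on normal medium, 5313 to 5406 in starved WT, 9918 to 10246 in RA on normal medium and 7042 to 7059 in starved RA. The 12 immune markers summed to 13.8 to 14.7, 30.7 to 31.9, 17.6 to 18.7 and 27.3 to 28.2 in the same order, with 3 to 5 of them at 0, and most of it was Csf1r. The 4 endothelial markers summed to between 2.02 and 9.43, and the 5 epithelial markers to between 0.31 and 1.25. These sums moved with starvation in both lines and their part in the results was not tested. In bulk libraries, fewer cells that express a gene and less RNA per cell cannot be told apart.

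The picture was the same for all 7 genes in its main lines. Starved WT was the lowest group for each of them and RA lay above WT in both media, with no overlap between any of these pairs of groups. Of the 16232 genes that passed a filter on low values (a CPM of at least 1 in at least 2 libraries), 28.5% lay without overlap above WT in RA in normal medium and 39.7% under starvation, and 44.1% lay without overlap lower in WT under starvation. In WT every member had a lower level under starvation, by 3.96-fold for Oas1a to 25.4-fold for Oas3. In RA, 6 of the 7 had a higher level under starvation, by 1.30-fold for Oas3 to 2.26-fold for Oasl2, beside 42.5% of all genes without overlap in this direction, and Oasl1 was the exception. The plot of the members by sample shows these levels, and the members are described in turn by their roles.

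**Figure D1:**
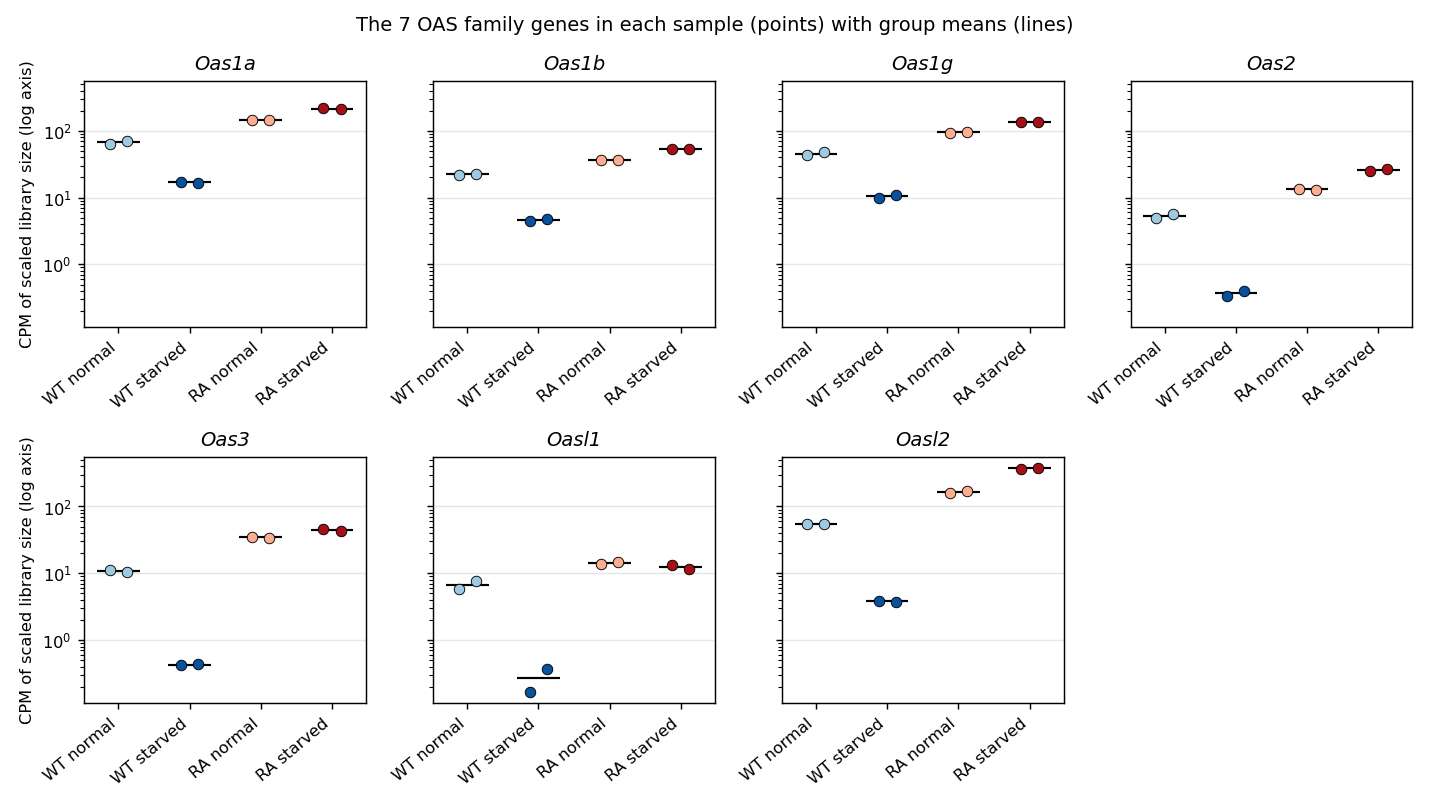
Level of the 7 OAS family genes in each of the 8 libraries, in CPM of the scaled library size on a log axis shared by all panels. Points are single libraries and horizontal lines are group means of 2 libraries. Starved WT is the lowest group in every panel and starved RA the highest in all but that of Oasl1.

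Oas1a, Oas1g and Oas1b belong to the Oas1 cluster, a set of short synthetases that is multiplied in the mouse. Oas1a, an active synthetase, stood at 62.9 and 71.4 CPM in WT on normal medium, 17.2 and 16.7 in starved WT, 145 and 147 in RA on normal medium and 218 and 209 in starved RA. Its 4 groups were thus fully separated, with starved WT at the bottom and starved RA at the top. RA was 2.18-fold above WT in normal medium and 12.6-fold above it under starvation.

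Oas1g, also an active synthetase, stood at 43.0 and 47.7 in WT on normal medium, 10.02 and 10.8 in starved WT, 92.7 and 96.8 in RA on normal medium and 137 and 133 in starved RA. The order of the groups was that of Oas1a, again without overlap. The ratio of RA to WT was 2.09 in normal medium and 13.0 under starvation. These profiles are not independent: 56.9% of the 50-base stretches of Oas1a transcripts occur in another Oas gene, and 54.7% of those of Oas1g, nearly all shared between this pair. How the reads were divided between them is therefore uncertain. The handling of reads that fit both genes is not given in the sources used here, so the sum of both is uncertain too.

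Oas1b, known as the flavivirus resistance gene and encoding a truncated protein in many laboratory strains, stood at 21.8 and 22.5 in WT on normal medium, 4.48 and 4.82 in starved WT, 36.7 and 36.8 in RA on normal medium and 53.9 and 54.1 in starved RA. Only 1.30% of its 50-base stretches occur in another Oas gene. Its groups were separated in the same order as those of Oas1a and Oas1g. Oas1b had the lowest ratio of RA to WT of the 7, at 1.66 in normal medium and 11.6 under starvation.

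Oas2 and Oas3 encode larger synthetases built from repeated OAS units, and Oas3 is known as a potent producer of 2-5A. Oas2 stood at 5.001 and 5.68 in WT on normal medium, 0.335 and 0.402 in starved WT, 13.7 and 13.1 in RA on normal medium and 25.3 and 26.5 in starved RA. Starved WT held few reads, 16 and 22 in its libraries, and the other groups lay above it without overlap. Its level was 14.5-fold lower in starved WT than in WT in normal medium and 1.94-fold higher in starved RA than in RA in normal medium.

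For Oas3 the levels were 11.3 and 10.5 in WT on normal medium, 0.419 and 0.438 in starved WT, 35.2 and 33.8 in RA on normal medium and 46.4 and 42.9 in starved RA. Its starved WT libraries held 20 and 24 reads. Oas3 had the highest ratio of RA to WT of the family in both media, 3.17 in normal medium and 104 under starvation. The latter rests on these few reads of starved WT.

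Oasl1 and Oasl2 encode OAS-like proteins with ubiquitin-like domains. Oasl2 retains synthetase activity, whereas Oasl1 lacks it and is known as a repressor of Irf7 translation. Oasl2 stood at 54.4 and 55.2 in WT on normal medium, 3.90 and 3.73 in starved WT, 157 and 170 in RA on normal medium and 363 and 377 in starved RA. Its separation of the groups was wide, with the top and bottom groups 97.1-fold apart. It was also the member with the greatest increase in level under starvation in RA, 2.26-fold.

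Oasl1 stood at 5.87 and 7.54 in WT on normal medium, 0.168 and 0.365 in starved WT, 13.9 and 14.6 in RA on normal medium and 13.2 and 11.7 in starved RA. In WT it was 25.2-fold lower under starvation, with 8 and 20 reads left in the starved libraries. This fold rests on few reads: as a ratio of starved to normal medium it was 0.0250 without replicate 2 of starved WT and 0.0545 without replicate 1, on either side of the 0.0394 of Oas3. In RA it was the only member whose level was lower under starvation, 0.879 of that in normal medium, and the pair of groups did not overlap, beside 40.7% of all genes without overlap in this direction. On the log2(CPM + 1) scale the difference in RA was -0.18 (SE 0.126). A stretch of 38 exon bases of Oasl1 is shared with Gm13822 on the opposite strand, and whether the counting used strand is not given in the sources used here.

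The starvation ratios of both lines are set side by side in the plot of starvation ratios. In WT the ratios were 0.0394 to 0.0695 for Oas3, Oasl1, Oas2 and Oasl2, and 0.21 to 0.252 for Oas1b, Oas1g and Oas1a. In RA the order was another one, with Oasl2 and Oas2 at the top, the 3 Oas1 genes between 1.43 and 1.47, then Oas3 and Oasl1. The members with the lowest ratios in WT were thus at both ends of the order in RA. The starvation response of RA minus that of WT, on the log2(CPM + 1) scale, was 2.47 for Oas1a, 2.58 for Oas1b and 2.53 for Oas1g (SE 0.0747, 0.092 and 0.08). It was 3.11 for Oas2, 3.42 for Oas3, 2.43 for Oasl1 and 4.71 for Oasl2 (SE 0.147, 0.121, 0.179 and 0.0692). Adding 1 to each value shrinks differences of the low members: fitted with edgeR on recovered reads, the same quantity was 4.83 for Oas2, 5.06 for Oas3, 4.45 for Oasl1 and 5.05 for Oasl2, so that these 4 members came close together.

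**Figure D2:**
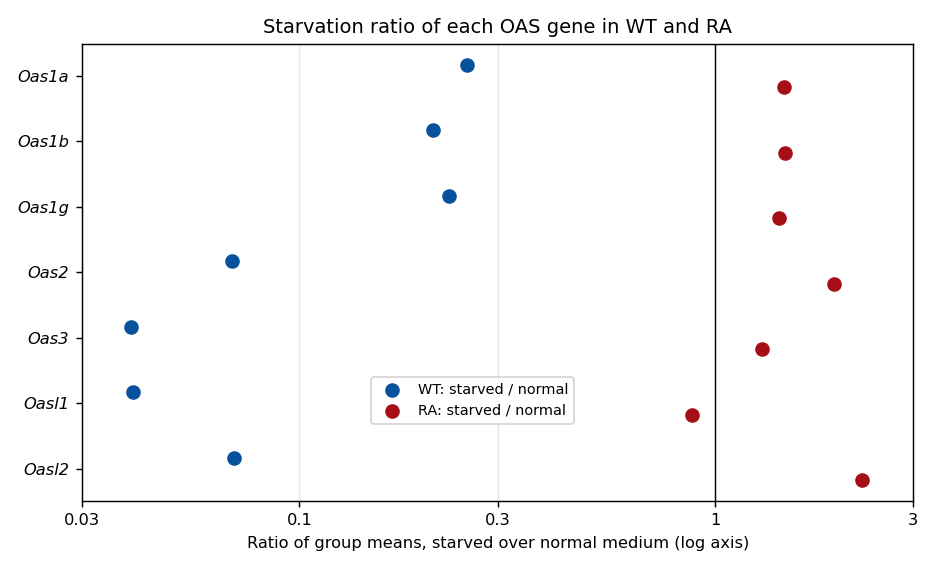
Ratio of the starved group mean to the normal-medium group mean for each of the 7 OAS genes, on a log axis with a line at 1. Blue points are WT and red points are RA, each from 2 libraries a group. All WT points lie between 0.0394 and 0.252, and the RA points lie between 0.879 and 2.26 with Oasl1 alone under 1.

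All 7 members passed the filter on low values. RA minus WT in normal medium had a median of 1.11 over the members, on the log2(CPM + 1) scale, and of 0.01 over all genes. Under starvation it had a median of 3.58 against -0.01. The response to starvation in WT had a median of -2.21 over the members against 0.00, and that in RA 0.54 against 0.01. The medians that include starved WT depend on the scale: under starvation RA minus WT was 5.15 with a pseudocount of 0.1 and 5.52 with edgeR on recovered reads, and the response of WT was -3.54 and -3.88. In the fit across all genes (limma, adjusted p under 0.05), 7 of 7 members were called higher in RA on normal medium, where 6.68% of all genes were. Under starvation 7 of 7 were called higher in RA, where 30.8% of all genes were. In WT 7 of 7 were called lower under starvation against 39.2% of all genes, and in RA 6 of 7 were called higher against 35% of all genes. Called lower in WT and higher in RA were 6 of 7 members and 3.01% of all genes. Since the members were chosen with these contrasts known, nothing is read from these counts. The comparisons of RA with WT and of starved with normal medium share their groups and are not independent of each other.

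Levels can be compared between members only per length, for which CPM was divided by the length of the longest GENCODE transcript in kilobases. On this scale the Oas1 genes made up most of the family in each of the 4 groups. The levels and shares of Oas1a and Oas1g are uncertain, since these genes share much of their sequence. The order of Oas1a and Oasl2 is then uncertain as well. Of the 7-gene sum, Oas1a held 36.7% to 38.2% in WT in normal medium, Oas1g 24.0% to 24.4%, Oasl2 17.8% to 19.2% and Oas1b 12.4% to 13.1%. In starved WT the share of Oas1a was 47.9% to 50.3% and that of Oasl2 was 6.44% to 6.89%, with Oas2, Oas3 and Oasl1 each under 1%. In RA in normal medium Oas1a held 35.6% to 36.5%, Oasl2 23.8% to 25.0% and Oas1g 22.2% to 22.4%. In starved RA the share of Oasl2 was 33.0% to 34.5% and that of Oas1a 31.7% to 32.8%. Their levels there were 119 ± 3.12 and 113 ± 3.3 CPM per kilobase (SD, n = 2), a difference of less than 2 of these SDs. For Oas2, Oas3 and Oasl1 in starved WT the levels were 0.0931 ± 0.0119, 0.0908 ± 0.0029 and 0.122 ± 0.0641 CPM per kilobase (SD, n = 2), which do not differ beyond their spread.

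**Figure D3:**
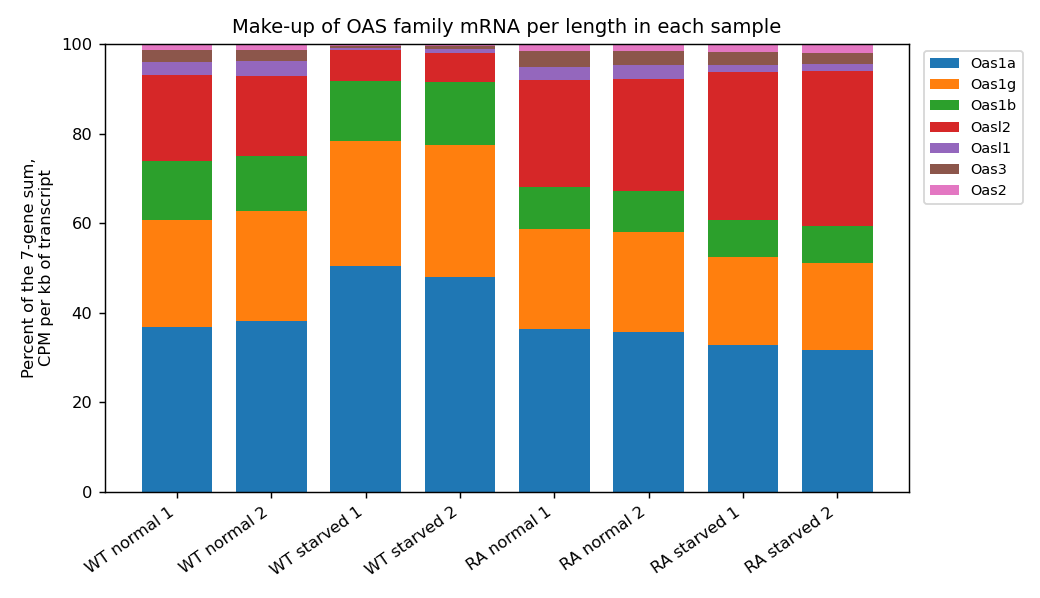
Share of each OAS gene in the 7-gene sum of CPM per kilobase of transcript, in percent, for the 8 libraries. Each bar is 1 library and the colors are the genes. The shares of Oas1a and Oas1g are uncertain, since these genes share much of their sequence. The red part, Oasl2, is under 7% in starved WT and about as large as the blue part, Oas1a, in starved RA.

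The other genes of the 2-5A pathway moved in both directions. This list, and the lists of interferon signal and nucleic acid sensing genes below, were chosen with earlier results of these data known. Their counts and p-values are given as a description, not as independent tests. The list held 8 genes: the Oas1 paralogs Oas1c, Oas1d, Oas1e, Oas1f and Oas1h, and the regulators Abce1, Pde12 and Akap7. Oas1d, Oas1e and Oas1f did not pass the filter, with at most 32 reads in a library. Of the 5 tested, 1 was higher in RA in normal medium, and under starvation 3 were higher and 2 were lower. In WT 1 rose and 3 fell under starvation, and in RA 1 rose and 2 fell. The response in RA was called above that in WT for 3 of the 5 and below it for 2, beside 24.5% and 26.1% of all genes. The other counts stand beside 9.63% of all genes called in normal medium and 62.9% between the starved groups (30.8% higher and 32.1% lower in RA). In the response of WT 78.6% were called (39.3% higher and 39.2% lower), and in that of RA 68.7% (35% higher and 33.7% lower).

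Oas1c, which shares its promoter region with Oas1b, stood at 5.39 and 6.09 in WT on normal medium, 0.922 and 0.877 in starved WT, 10.6 and 10.9 in RA on normal medium and 6.70 and 5.39 in starved RA. It fell in both lines, by 1.83 in WT (SE 0.12, limma BH-adjusted p = 2.80e-10) and by 0.75 in RA (SE 0.12, limma BH-adjusted p = 3.12e-05), and the responses differed by 1.08 (limma BH-adjusted p = 5.71e-05). That difference was 1.71 with a pseudocount of 0.1 and 1.87 with edgeR on recovered reads. Starved RA overlapped with WT in normal medium. A stretch of 223 exon bases of Oas1c is shared with Gm43069 on the opposite strand.

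Oas1h stood at 1.35 and 1.89 in WT on normal medium, 1.84 and 0.877 in starved WT, 2.90 and 1.96 in RA on normal medium and 6.15 and 5.27 in starved RA. The WT groups overlapped, and starved RA was above all others. It rose in RA by 0.98 (SE 0.184, limma BH-adjusted p = 1.61e-04), and its difference of -0.17 in WT was not called (SE 0.184, limma BH-adjusted p = 0.394), although it was -0.47 without replicate 1 of starved WT (limma adjusted p = 0.0361). Without replicate 2 of starved WT it had the other sign, 0.13 (limma adjusted p = 0.563). The difference between the responses was 1.15 (SE 0.26, limma BH-adjusted p = 0.00148), above that of Oas1c, but with a pseudocount of 0.1 and with edgeR it was 1.52 and 1.55, below that of Oas1c.

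The regulators went other ways. Abce1, which recycles ribosomes and is known to restrain the pathway, stood at 379 and 377 in WT on normal medium, 319 and 312 in starved WT, 379 and 367 in RA on normal medium and 242 and 240 in starved RA. It fell in both lines, and more in RA, with a difference between the responses of -0.37 (SE 0.0508, limma BH-adjusted p = 1.43e-05). Pde12, a phosphodiesterase that degrades 2-5A, also responded differently, by -0.32 (SE 0.0862, limma BH-adjusted p = 0.00583). Its rise of 0.19 in WT (limma BH-adjusted p = 0.00826) was lost with scaling to total reads (adjusted p = 0.0732), without replicate 1 of WT in normal medium (0.0759) and without replicate 2 of starved WT (0.0591). Akap7, which has a domain of the 2-5A degrading phosphodiesterases, fell in WT by 0.62 (limma BH-adjusted p = 1.85e-04), or by 0.40 without replicate 1 of starved WT, and its difference of 0.23 in RA was not called (limma BH-adjusted p = 0.104), but passed without either library of starved WT (adjusted p = 0.0397 and 0.0425). Its responses differed by 0.85 (limma BH-adjusted p = 6.11e-04).

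**Figure D4:**
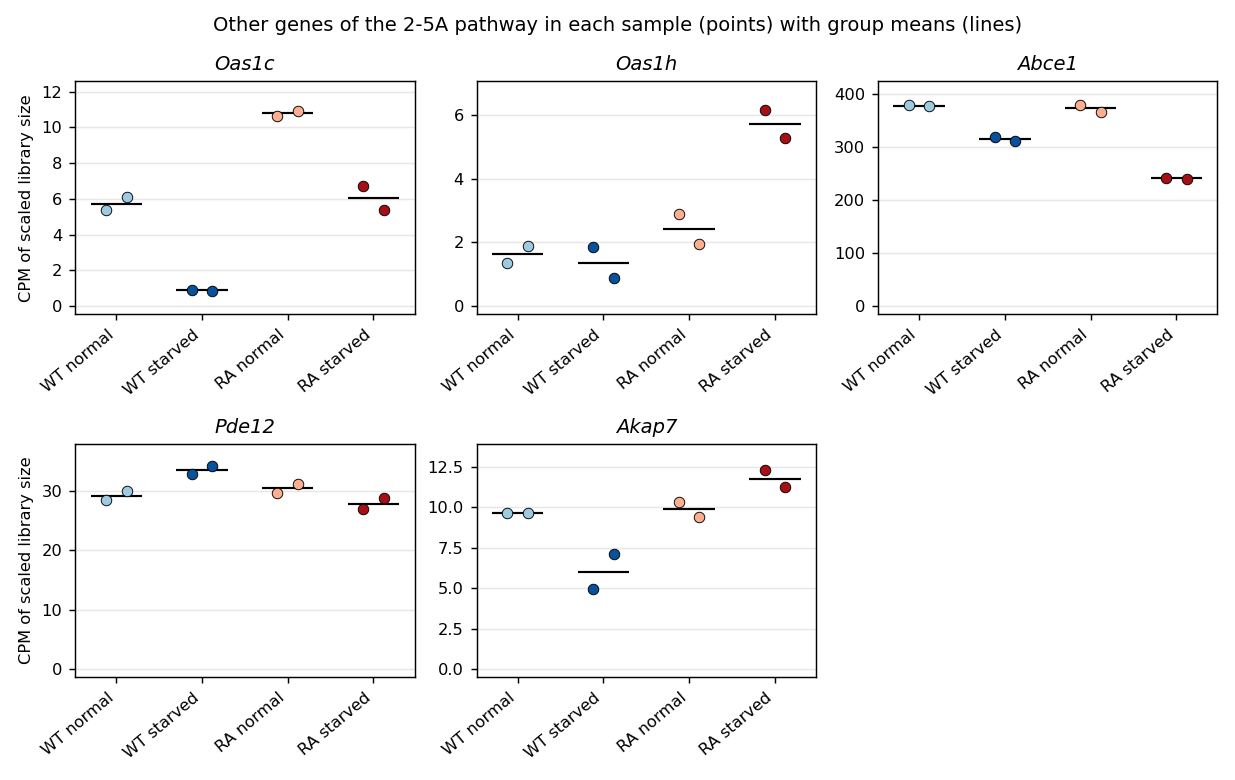
Level of 5 other genes of the 2-5A pathway in each of the 8 libraries, in CPM of the scaled library size on linear axes that differ between panels. Points are single libraries and horizontal lines are group means of 2 libraries. Oas1c is lower under starvation in both lines, Oas1h is highest in starved RA, and Abce1 is lowest there.

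A second list held 13 genes, all tested, that carry the interferon signal to the OAS promoters. They run from the cytokine and its receptor to the transcription factors and feedback inhibitors. This list too was chosen with earlier results known, so its counts and p-values are a description. In normal medium 6 were higher in RA (6.68% of all genes were) and 0 were lower, and under starvation 10 were higher (30.8% of all genes) and 0 were lower. In WT 3 rose and 10 fell under starvation, beside 39.3% and 39.2% of all genes, and in RA 7 rose and 3 fell, beside 35% and 33.7%. The response in RA exceeded that in WT for 9 of 13, beside 24.5% of all genes called in this direction and 50.6% in either.

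Stat2 and Irf9, transcription factors that act together at the ISRE, were among these 9. Stat2 had group means of 128 CPM in WT on normal medium, 31.8 in starved WT, 215 in RA on normal medium and 301 in starved RA (SD 1.29, 2.69, 4.50 and 1.83, n = 2). It fell by 1.98 in WT (SE 0.0478, limma BH-adjusted p = 3.27e-16) and rose by 0.48 in RA (SE 0.0478, limma BH-adjusted p = 1.07e-07), with a difference between the responses of 2.47 (SE 0.0675, limma BH-adjusted p = 2.08e-14). Irf9 went the same way, with a difference of 1.71 (SE 0.0611, limma BH-adjusted p = 5.95e-13). For Irf7, a factor that drives interferon production, the difference was 3.64 (SE 0.0863, limma BH-adjusted p = 3.05e-15), and Irf7 rose by 1.21 in RA.

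Interferon beta itself, Ifnb1, was low in every group, with means of 0.732 CPM in WT on normal medium, 0.214 in starved WT, 2.18 in RA on normal medium and 4.11 in starved RA (SD 0.00962, 0.00685, 0.154 and 0.671, n = 2). It fell in WT by 0.51 (limma BH-adjusted p = 0.00234) and rose in RA by 0.68 (limma BH-adjusted p = 2.69e-04), and the responses differed by 1.19 (SE 0.191, limma BH-adjusted p = 6.76e-05). At these low levels the scale matters: with edgeR on recovered reads it fell by 1.80 in WT and the difference between the responses was 2.70. The receptor genes showed no such difference that passed the test: it was -0.02 for Ifnar1 (SE 0.0673, limma BH-adjusted p = 0.851) and 0.00 for Ifnar2 (SE 0.0766, limma BH-adjusted p = 0.983). Of the receptor kinases, Tyk2 rose in both lines, by 0.62 in WT and 0.54 in RA, and its difference of -0.07 was not called (limma BH-adjusted p = 0.583). The other receptor kinase, Jak1, fell in WT by 0.13 and was not called in RA (0.06), and its difference of 0.19 was called.

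Other sensors of and responders to double-stranded RNA or other nucleic acids formed the last list, of 12 genes, all tested. It too was chosen with earlier results known, so its counts and p-values are a description. In normal medium 7 were higher in RA, beside 6.68% of all genes, and under starvation all 12 were, beside 30.8%. In WT 11 of 12 fell under starvation, beside 39.2% of all genes, and 0 rose. In RA 5 rose and 4 fell, beside 35% and 33.7% of all genes. The response in RA exceeded that in WT for 10 of 12, beside 24.5% of all genes. The RNA helicases Ifih1 and Ddx58, the cytosolic sensors MDA5 and RIG-I, had differences of 2.82 (SE 0.0858, limma BH-adjusted p = 7.83e-14) for Ifih1 and 2.91 (SE 0.0671, limma BH-adjusted p = 2.16e-15) for Ddx58. For Eif2ak2, the kinase PKR, which stops translation upon binding double-stranded RNA, the difference was 1.94 (SE 0.0699, limma BH-adjusted p = 6.62e-13), and it fell in RA too, by 0.23. Zbp1, a sensor of Z-form nucleic acid, rose in RA by 2.04 (SE 0.123, limma BH-adjusted p = 1.65e-10) from a mean of 6.33 CPM to 29.1. By contrast, Mb21d1, which encodes the DNA sensor cGAS, fell in WT by 1.58 and in RA by 1.39, and the difference of 0.19 was not called (SE 0.125, limma BH-adjusted p = 0.215).

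The genes beside the OAS loci on chromosome 5 were compared as well. In the RefSeq order of genes, the 3 tested genes on each side of the Oasl locus and of the Oas1, Oas2 and Oas3 locus gave 12 neighbours. For 0 of the 12 did the response in RA exceed that in WT at the threshold, beside 24.5% of all genes. For 6 it was lower, beside 26.1% of all genes, and the median difference was -0.32 against -0.01 over all genes. For Sppl3, beside the Oasl locus, it was -0.59 (SE 0.0683, limma BH-adjusted p = 2.20e-06). Trafd1, known as an interferon-inducible regulator of innate immunity, was the 1 neighbour called higher in RA under starvation, beside 30.8% of all genes, by 0.52 (SE 0.0651, limma BH-adjusted p = 3.00e-06), and it rose in WT by 0.67 and in RA by 0.73. Of the other neighbours, 7 were lower in RA under starvation, beside 32.1% of all genes. In WT 8 of the 12 rose under starvation and 3 fell, beside 39.3% and 39.2% of all genes.

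Among the 12092 other genes with a mean CPM of at least 5, those nearest to each member in centred log2(CPM + 1) over the 8 libraries were as follows. Parp12 was nearest to both Oas1a and Oas1g, at Euclidean distances of 0.267 and 0.227. Stat2 was nearest to Oas1b (0.203), Isg15 to Oas3 (0.173) and Nmi to Oasl1 (0.41). For Oas2 it was Ddx60 (0.449) and for Oasl2 it was Rsad2 (0.475). The 10 genes with the highest Pearson r to the mean profile of the members were Ifit3, Olfr56, Ifit3b, Parp12, Trim30a, Trim12c, Cmpk2, Art3, Cxcl10 and Serpinb1a, with r from 0.9988 to 0.9999 over 8 libraries. Of these 10, Art3 and Cxcl10 had nearly the same values, with mean CPM of 104 and 101. Their responses were -3.04 and -3.03 in WT, and 0.64 and 0.63 in RA. Exon overlap was not looked up for these 10 genes, so whether their rows share reads is not known. The members correlated with each other at r from 0.954, for Oas2 and Oasl1, to 0.999, for Oas1a and Oas1g. These points are 4 groups of 2 libraries that share their scaling, and they are not independent.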

How the data were processed

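PolyA RNA of Pontin WT and RA MEFs was made into TruSeq RNA v2 libraries, and the submitters' processing notes name TopHat2 2.0.9, the mm9 genome, bedtools and edgeR. The gene annotation, strand handling and filters of the counting are not given in the sources used here. The authors deposited a table with 49492 gene rows. The authors made its values, a signal in CPM, by dividing the reads of a gene by a library size scaled sample by sample. The column names minus and plus were taken to mean normal medium and starvation, after the marks used in the study. In every column 100% of nonzero values were whole multiples of 1 read (tolerance 1e-04), which gave 43205841 to 56363034 reads per library. Of recovered counts from 1 to 9, 78.2% to 80.5% were even, which happens if a pair adds both of its mates to the count. Limits in reads cover counting error only.

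Groups came from the labels, and whether replicates were separate cultures is not stated, so p-values measure only the spread between these samples. Replicates differed beyond the sampling noise of single reads in each group (chi-square per degree of freedom 3.34 to 14.8). If both mates of a pair are counted, sampling noise is larger and the excess over it is smaller. The 16232 genes reaching a CPM of 1 in 2 or more samples were fitted on log2(CPM + 1) with limma 3.58.1 in R 4.3.3, using 1 mean per group across the 8 samples, a trended eBayes step, 2-sided tests and Benjamini-Hochberg (BH) adjustment over all genes of a contrast, called at adjusted p under 0.05. Log2 differences are on this scale, which understates changes of low genes. The difference between responses is that in RA less that in WT. Alternatives were a pseudocount of 0.1, no filter, median-ratio and total-read scaling, a replicate block, leaving out each sample, edgeR 4.0.16 and DESeq2 1.42.0. On recovered reads edgeR called 1555 genes between the lines in normal medium, 10194 under starvation, 12705 in the response of WT, 11114 in that of RA and 8096 between the responses.

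The members and gene lists were chosen with earlier results of these data known, and some items of the lists are not reported here. Genes were named by rule: the 7 members, examples from the lists, 3 tested neighbours on each side of a locus, the nearest gene to each member by distance, and the 10 with the highest r to the members' mean. Exceptions are Apol9a and Apol9b, and the overlapping genes, named after a sequence search. Lengths, exon overlaps and the start of Oas1b are from GENCODE M21 on GRCm38. The lengths stand in place of the planned RefSeq coding lengths, and promoters are from RefSeq on GRCm38.p6. No coordinates of the mm9 build were used.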

Additional observations from a re-analysis of the deposited data

Results flagged for a closer look

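For 6 of the 7 members every WT library was lower under starvation and every RA library higher. Of all genes, 44.1% lay without overlap lower in WT under starvation and 42.5% higher in RA. The share with both was not computed, and 3.01% of all genes were called lower in WT and higher in RA. The response in RA less that in WT was 2.47 for Oas1a, 2.58 for Oas1b, 2.53 for Oas1g, 3.11 for Oas2, 3.42 for Oas3 and 4.71 for Oasl2 on the log2(CPM + 1) scale. All 7 members were called higher in this difference by limma across all genes, as were 24.5% of all genes, but since the members were chosen with it known, no p-value is given and nothing is read from the calls.

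In the lists, the same difference passed limma's test of the interaction for the genes below, beside 50.6% of all genes. The lists were chosen with earlier results known, so these are not independent tests. In the 2-5A pathway it was 1.15 for Oas1h, 1.08 for Oas1c (with edgeR 1.55 and 1.87, in the other order), 0.85 for Akap7, -0.32 for Pde12 and -0.37 for Abce1. Among the genes of the interferon signal it was 3.64 for Irf7, 3.56 for Usp18, 2.47 for Stat2 and 1.72 for Irf1. It was 1.71 for Irf9, 1.19 for Ifnb1, 0.85 for Socs1, 0.35 for Irf2 and 0.19 for Jak1. Of these, Irf7, Usp18, Stat2, Irf9 and Ifnb1 rose in RA, and Jak1 was not called there. Irf1, Socs1 and Irf2 fell in both lines: -2.16, -1.64 and -0.56 in WT, and -0.44, -0.79 and -0.21 in RA. Among sensors of and responders to double-stranded RNA or other nucleic acids it was 2.91 for Ddx58, 2.86 for Dhx58 and 2.82 for Ifih1. It was 2.75 for Zbp1, 2.001 for Tlr3, 1.94 for Eif2ak2 and 0.84 for Adar. For Tmem173 it was 0.74, for Prkra 0.46 and for Tarbp2 0.25. Of these, Tlr3, Eif2ak2 and Tmem173 fell under starvation in both lines.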

How the results depend on the processing

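No member and no called list gene changed sign under an alternative. The members' medians of the contrasts that include starved WT depended on the scale, since 3 members had few reads there. RA minus WT under starvation, 3.58 as reported, was 5.15 with a pseudocount of 0.1, 5.52 with edgeR and 5.50 with DESeq2. The response of WT, -2.21 as reported, was -3.54, -3.88 and -3.86 in the same order, and the difference between responses, 2.58 as reported, was 4.07, 4.45 and 4.44. Leaving out each sample gave medians of 1.02 to 1.203 for RA minus WT in normal medium, 3.56 to 3.63 under starvation, -2.29 to -2.13 in WT, 0.517 to 0.547 in RA and 2.54 to 2.62 for the difference between responses. Of the 115 calls of list genes (gene and contrast), 6 were lost in at least 1 alternative: Mavs under starvation and in WT, Pde12, Ifnar1 and Prkra in WT and Irf2 in RA, each on leaving out a library and some on other settings too. There were 8 others gained, among them the difference between responses of Mb21d1 without replicate 1 of starved WT. Without a filter, 650 genes were called between the lines in normal medium against 1563 with it. Same-numbered samples of different groups correlated at -0.00764 to 0.157 in their deviations, not over 0.1 in every pair, so the numbers were not taken to pair them. With the replicate block the members' medians were unchanged and the list calls numbered 14, 27, 28, 22 and 25, against 14, 27, 28, 22 and 24 without it, in the order normal medium, starvation, WT, RA and difference. Depth limits Oas2, Oas3 and Oasl1 in starved WT, where each library held 8 to 24 reads. The independent fragments are fewer if both mates of a pair were counted.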
